A study of Mus musculus with 30 samples.

Results

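Krüppel-like factors (KLFs) are transcription factors, and the 8 members followed here are *Klf2*, *Klf3*, *Klf4*, *Klf6*, *Klf7*, *Klf9*, *Klf10* and *Klf13*. They were picked by symbol from the 43629 genes of the count table, 38984 of which have a symbol, and each symbol matched 1 Ensembl identifier. All 8 passed the filter on low counts in every comparison, and 9 other Klf genes (*Klf1*, *Klf5*, *Klf8*, *Klf11*, *Klf12*, *Klf14*, *Klf15*, *Klf16* and *Klf17*) served as a separate list.

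KLFs bind GC-rich DNA and CACCC sequences through zinc fingers at the end of the protein, next to a regulatory part that differs between members. KLF2, KLF4, KLF6 and KLF7 mainly activate transcription, KLF3 recruits the corepressor CtBP, and KLF9, KLF10 and KLF13 carry a motif that binds the corepressor Sin3A. In myeloid cells, KLF2 is known for holding back inflammatory genes and KLF4 for its part in monocyte development and in some dendritic cells (DCs). Several members are also early response genes, whose transcription changes soon after a cell is stimulated.

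RNA was sequenced from bone marrow-derived dendritic cells (BMDCs), which are grown from mouse bone marrow with the growth factor GM-CSF. The study asked what extracellular ATP, a signal released by damaged cells, does to DCs that lack *Cacnb3*, a gene for a β subunit of voltage-gated calcium channels. There were 5 cultures of WT BMDCs (C57BL/6J) and 5 labelled *Cacnb3-/-* (C57BL/6N), so the substrain differs with the genotype, and the methods describe adult mice of both sexes. Each culture was grown for 6 days and gave 3 libraries, named ctrl, 0p5h and 24h, with ATP given at 500 µM for 30 min. The WT cultures are p974s846, p974s850, p974s855, p974s856 and p974s864, and those labelled *Cacnb3-/-* are p974s843, p974s851, p974s852, p974s853 and p974s865.

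For ctrl and 0p5h the name of a library contradicts its treatment entry. The entry is 30 min of ATP where the name is ctrl, and vehicle where the name is 0p5h, whereas name and entry match for 24h, collected 24 h after ATP. Libraries were grouped by name here, and a change from ctrl to 0p5h is a change between these names, whose direction in terms of ATP cannot be settled from the labels.

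Libraries held 8237393 to 32164225 counted reads (median 19556920), the fewest in the 24h library of p974s843, and the 60 pairs of libraries within a group all differed by more than sampling noise. *Cacnb3* itself, the targeted gene, was read in all 30 libraries, at 1035 to 2143 CPM (reads scaled to the size of each library) in WT and 573 to 1331 CPM in those labelled *Cacnb3-/-*, so its gene count does not check the label, and which exons the deletion removes is not given in the sources used here. At 24h all 5 libraries labelled *Cacnb3-/-* (573 to 1295 CPM) lay below all 5 of WT (1303 to 2143 CPM). The log2 ratio was -0.77 (SE 0.23, adjusted p = 0.0518, edgeR with Benjamini-Hochberg adjustment). Of 12706 genes compared between these libraries, edgeR called 0 with that adjustment, but 4877 had an unadjusted p under 0.05 in edgeR. DESeq2 called 26.4% of 12797 genes. The lower *Cacnb3* at 24h therefore does not check the label either, and the share of genes separated in this way is not given here. DC markers were high in all groups, while the 3 erythroid markers and the lymphocyte markers *Cd3e* and *Ncr1* stayed under 1 CPM in all libraries. The summed CPM of 7 macrophage markers ran from 476 to 2127, and that of 7 granulocyte markers from 129 to 685. These are bulk libraries, in which fewer cells of a type and less RNA per cell cannot be told apart.

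In the annotation of the count table (GRCm38), *Klf2* lies at chr8:72319033-72321656, *Klf3* at chr5:64803523-64830129, *Klf4* at chr4:55527143-55532466 and *Klf6* at chr13:5861489-5870393. *Klf7* lies at chr1:64029447-64122282, *Klf9* at chr19:23141226-23166911, *Klf10* at chr15:38294413-38300707 and *Klf13* at chr7:63886347-63938915, so no 2 members share a chromosome. To show where the transcripts that changed begin, the 250 bases before the RefSeq start sites of *Klf4*, *Klf2* and *Klf9* are given 5′ to 3′ along the gene (GRCm38.p6). RefSeq's table held such a window for 7 of the 8 members, all but *Klf10*. *Klf4* and *Klf9* are the members called between sets in the standard edgeR fit, without pairing of the cultures. *Klf2*, a close relative of *Klf4*, was called higher at 0p5h with pairing alone. *Klf6*, whose window is not printed, was called higher at 0p5h with pairing too. Capitals mark TGACG on either strand, the half-site of the cAMP response element, and in *Klf2* also a match to the MEF2 site.
Klf4, chr4:55532476-55532725, minus strand: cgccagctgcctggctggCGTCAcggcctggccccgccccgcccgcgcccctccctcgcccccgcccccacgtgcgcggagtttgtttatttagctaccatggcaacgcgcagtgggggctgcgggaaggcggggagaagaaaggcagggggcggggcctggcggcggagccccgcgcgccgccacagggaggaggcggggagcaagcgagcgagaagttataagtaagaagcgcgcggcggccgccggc
Klf2, chr8:72318812-72319061, plus strand: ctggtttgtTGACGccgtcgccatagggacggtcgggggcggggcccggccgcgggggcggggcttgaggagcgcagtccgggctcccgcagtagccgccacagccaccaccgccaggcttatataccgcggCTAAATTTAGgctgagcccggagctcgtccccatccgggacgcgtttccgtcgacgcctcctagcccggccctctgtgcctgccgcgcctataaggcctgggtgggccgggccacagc
Klf9, chr19:23140976-23141225, plus strand: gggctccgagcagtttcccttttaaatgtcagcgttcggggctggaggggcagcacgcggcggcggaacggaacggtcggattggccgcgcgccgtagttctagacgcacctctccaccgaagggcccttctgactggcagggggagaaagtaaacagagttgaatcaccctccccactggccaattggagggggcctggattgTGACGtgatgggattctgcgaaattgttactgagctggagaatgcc
The half-site was found in 4 of the 7 windows (*Klf2*, *Klf4*, *Klf9* and *Klf13*) and in 17.8% of 32851 windows of the same length. It lay 228 bases before the start in *Klf4*, on the strand opposite to the gene, and 42 bases before it in *Klf9*. The MEF2 match in *Klf2* was the only one among the members, against 2.92% of all windows. The full cAMP response element (TGACGTCA), the AP-1 site (TGACTCA) and the CArG box of serum response factor were found in 0 of the 7, and in 1.55%, 4.46% and 1.47% of all windows. The motif that KLFs bind, CACCC on either strand, was in 5 of the 7 (not in *Klf4* and *Klf6*) and in 52% of all windows. The GC box GGGCGG was in 6 of 7, all but *Klf9*, and in 32.7% of all windows. The 7 windows held 59.2% to 78.4% G and C, against a median of 52.4% over all windows.

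Levels of different genes were compared as CPM per kilobase of annotated exons. *Klf6* was by far the most abundant member, with a mean of 131 CPM per kb over the 30 libraries, higher than 97.1% of the genes that passed the filter. It is a widely expressed activator, known from inflammatory gene programmes in macrophages. *Klf2* followed at 16.9, *Klf10* at 13.4, *Klf13* at 9.64, *Klf4* at 5.83, *Klf9* at 3.71, *Klf3* at 3.23 and *Klf7* at 1.02 CPM per kb. Only between *Klf6* and *Klf2* were the ranges of neighbours in this order apart. *Klf4* and *Klf9* could not be ordered, since *Klf4* was the higher in 15 of 30 libraries. *Klf2* exceeded *Klf10* in 24, *Klf10* exceeded *Klf13* in 22, *Klf13* exceeded *Klf4* in 25, *Klf9* exceeded *Klf3* in 23 and *Klf3* exceeded *Klf7* in 30 of 30. *Klf7*, the lowest, still had 65 to 312 reads per library, and the fewest reads behind any value were 33, for *Klf9* in a library of 24h.

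**Figure D1:**
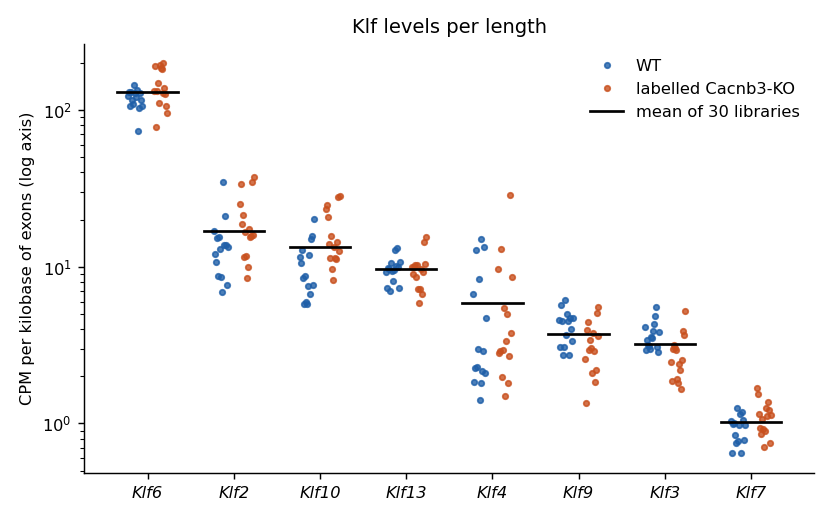
Level of each Klf gene in CPM per kilobase of exons (log axis) in each of 30 libraries, blue for WT and orange for those labelled Cacnb3-KO, with the mean as a black line. *Klf6* at a mean of 131 CPM per kb lies above all values of the other members, whose ranges overlap those of their neighbours.

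From ctrl to 0p5h, *Klf4* rose and no other member passed in edgeR without pairing. *Klf4*, a zinc finger factor of monocyte and epithelial differentiation, had 5.49, 6.84, 8.88, 9.12 and 14.5 CPM in the WT libraries named ctrl. In the WT libraries named 0p5h it had 20.4, 25.4, 39.0, 40.9 and 45.8 CPM. All WT libraries named 0p5h thus lay above all those named ctrl, as they did for 0.712% of 13755 genes. In libraries labelled *Cacnb3-/-*, *Klf4* had 8.21, 8.82, 8.93, 10.2 and 26.2 CPM at ctrl and 15.3, 16.7, 29.4, 39.6 and 87.8 CPM at 0p5h. Here the groups overlap, because culture p974s865 was the highest in both sets. Within cultures *Klf4* was higher at 0p5h in 10 of 10, as were 3.8% of genes, by 1.63-fold to 5.16-fold with a median of 3.34-fold.

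In the edgeR quasi-likelihood test with Benjamini-Hochberg adjustment, the log2 fold change of *Klf4* was 1.95 in WT (SE, the standard error, 0.30, adjusted p = 0.0236). It was 1.57 in BMDCs labelled *Cacnb3-/-* (SE 0.49, adjusted p = 0.635, same test) and 1.76 over both genotypes (SE 0.31, adjusted p = 0.00223, edgeR with Benjamini-Hochberg adjustment). So 1 of the 8 members was called in WT, where 0.29% of 13085 genes were, 0 in BMDCs labelled *Cacnb3-/-*, where 0.384% of 12750 genes were, and 1 over both genotypes, against 1.68% of 13465 genes. The 3 libraries of a culture deviated together from their group means, so the culture was also fitted as a replicate block. With this block *Klf4* also passed in BMDCs labelled *Cacnb3-/-* (1.47, SE 0.19, adjusted p = 0.00276, edgeR with Benjamini-Hochberg adjustment). The rises of *Klf4* in the genotypes were not shown to differ (interaction on the log2 scale -0.36, SE 0.61, without the block and -0.46, SE 0.25, with it, adjusted p = 1 in both, edgeR with Benjamini-Hochberg adjustment). The WT call was lost without culture p974s846, p974s850, p974s855 or p974s856 (adjusted p = 0.084, 0.242, 0.0751 and 0.254, edgeR with Benjamini-Hochberg adjustment). Over both genotypes it held without each of the 10 cultures, and within the 3 sequencing lanes the difference of mean log2(CPM + 1) was 1.96, 1.29 and 1.49. The labels do not say what a culture number marks, so p-values measure only the spread between these libraries.

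**Figure D2:**
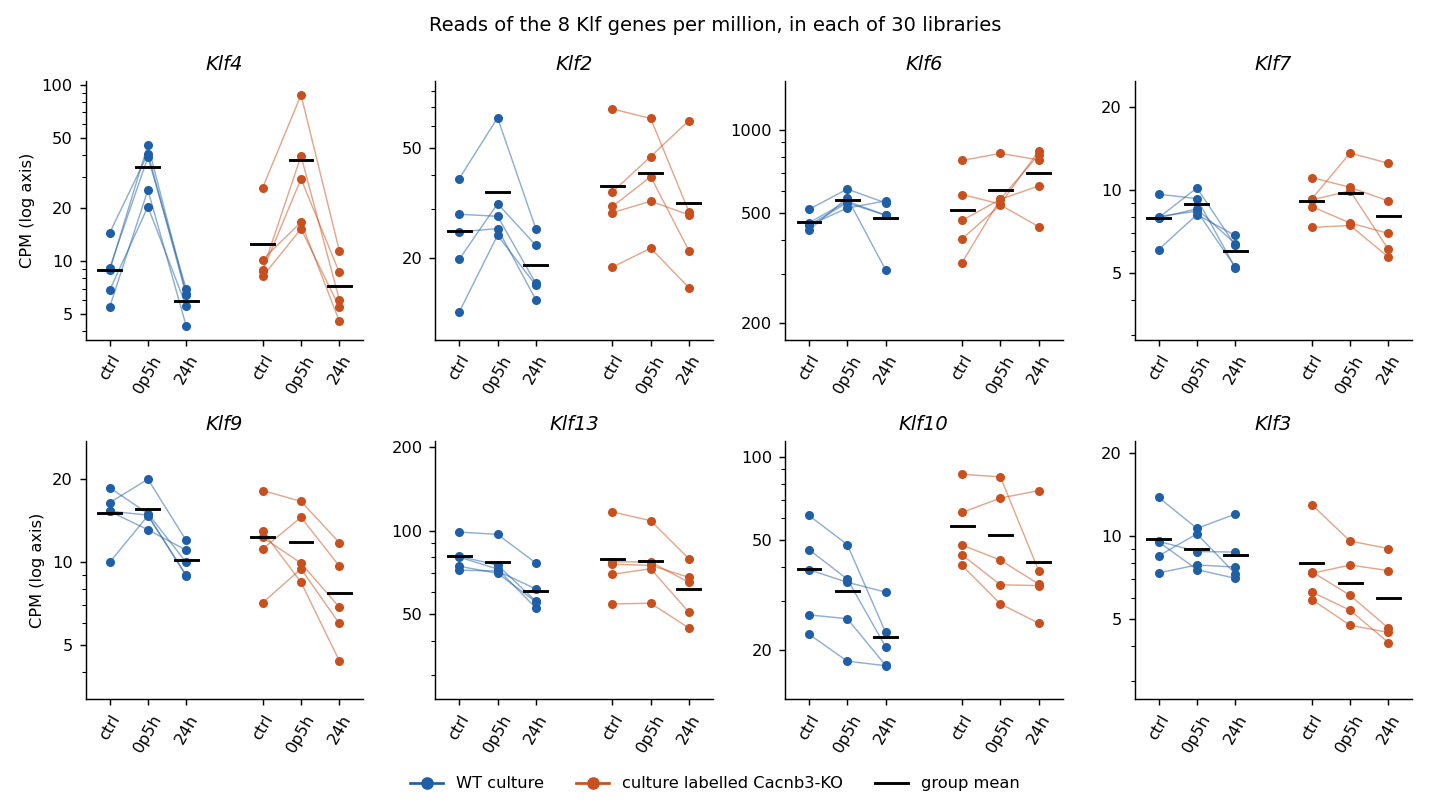
CPM (log axes) of the 8 Klf genes in each library, by set, with lines joining the 3 libraries of a culture and black bars for the mean of 5 libraries. WT (blue) libraries named 0p5h hold 20.4 to 45.8 CPM of *Klf4*, above the 5.49 to 14.5 CPM of those named ctrl, and at 24h it is at 4.3 to 6.96 CPM.

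*Klf2*, the closest relative of *Klf4* in function, is a factor of quiescence in lymphocytes, monocytes and endothelium. It had 12.7, 19.8, 24.8, 28.7 and 38.7 CPM in WT at ctrl and 24.1, 25.5, 28.3, 31.4 and 64.2 CPM at 0p5h, with groups that overlap. It was higher at 0p5h in 4 of 5 WT cultures and in 4 of 5 labelled *Cacnb3-/-*. Its log2 fold change over both genotypes was 0.31 without the block (adjusted p = 0.963) and 0.34 with it (SE 0.09, adjusted p = 0.0221, both from edgeR with Benjamini-Hochberg adjustment).

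*Klf6* differed little in size but steadily in WT, where it had 433, 451, 452, 461 and 515 CPM at ctrl and 521, 544, 551, 567 and 610 CPM at 0p5h. The WT groups do not overlap, and the ratio within cultures was 1.15-fold to 1.31-fold. In libraries labelled *Cacnb3-/-* the spread was wider, from 331 to 775 CPM at ctrl and from 535 to 822 CPM at 0p5h. Its log2 fold change in WT was 0.28 (SE 0.08, adjusted p = 0.366), which passed with the block (0.28, SE 0.04, adjusted p = 0.00296, both edgeR with Benjamini-Hochberg adjustment). DESeq2 called it in WT without the block (adjusted p = 0.0138, Benjamini-Hochberg adjustment), as it did 0.764% of 15960 genes. Over both genotypes the block gave 0.28 (adjusted p = 0.00654, edgeR with Benjamini-Hochberg adjustment), and *Klf6* was higher in 9 of 10 cultures.

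The other 5 members gave log2 fold changes between -0.26 (*Klf3* in BMDCs labelled *Cacnb3-/-*) and 0.18 (*Klf7* in WT) from ctrl to 0p5h. *Klf10*, induced by TGF-β in many cells, was lower at 0p5h in 5 of 5 WT cultures (0.783-fold to 0.969-fold) and in 4 of 5 labelled *Cacnb3-/-*. Its log2 fold change with the block was -0.24 in WT (SE 0.06, adjusted p = 0.0321) and -0.20 over both genotypes (adjusted p = 0.0253, both edgeR with Benjamini-Hochberg adjustment). *Klf13* was at 0.905-fold to 0.992-fold of its ctrl level in the 5 WT cultures, and neither it nor *Klf3*, *Klf7* or *Klf9* passed with or without the block. With the block, the members called were *Klf4*, *Klf6* and *Klf10* in WT (5.96% of 13085 genes), *Klf4* in BMDCs labelled *Cacnb3-/-* (2.35% of 12750 genes) and *Klf2*, *Klf4*, *Klf6* and *Klf10* over both (14.3% of 13465 genes).

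From 0p5h to 24h most members were lower. *Klf4* fell in all 10 cultures, to between 0.131-fold and 0.36-fold of its 0p5h level. At 24h it had 4.30, 5.58, 6.43, 6.56 and 6.96 CPM in WT and 4.58, 5.50, 6.06, 8.65 and 11.5 CPM in libraries labelled *Cacnb3-/-*. In both genotypes all libraries of 24h lay under all those of 0p5h, as for 2.09% of 13755 genes in WT and 1.8% in BMDCs labelled *Cacnb3-/-*. Its log2 fold change was -2.52 in WT (SE 0.24, adjusted p = 0.000375), -2.36 in BMDCs labelled *Cacnb3-/-* (SE 0.47, adjusted p = 0.0376) and -2.43 over both (SE 0.27, adjusted p = 5.15e-06, all edgeR with Benjamini-Hochberg adjustment). In WT this held without each culture, but in BMDCs labelled *Cacnb3-/-* it was lost without p974s843, p974s851, p974s852 or p974s853 (adjusted p = 0.132, 0.26, 0.062 and 0.102, edgeR with Benjamini-Hochberg adjustment). With the block the adjusted p in BMDCs labelled *Cacnb3-/-* was 5.24e-05 (edgeR with Benjamini-Hochberg adjustment). Within the 3 lanes the difference of mean log2(CPM + 1) was -2.45, -2.05 and -1.84.

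*Klf9*, a Sin3A-binding factor known to be induced by glucocorticoids and thyroid hormone, was the other member called in the standard edgeR fit, without the block. It had 13.1, 14.7, 14.8, 15 and 19.9 CPM in WT at 0p5h and 8.90, 8.96, 9.97, 11 and 12 CPM at 24h, with no overlap. In libraries labelled *Cacnb3-/-* it had 8.44, 9.44, 9.90, 14.5 and 16.6 CPM at 0p5h and 4.39, 5.99, 6.87, 9.67 and 11.8 CPM at 24h, where the groups overlap. It was lower at 24h in 10 of 10 cultures, by a median of 0.65-fold. The log2 fold change over both genotypes was -0.59 (SE 0.15, adjusted p = 0.031, edgeR with Benjamini-Hochberg adjustment), and within the lanes it was -0.47, -0.41 and -0.69. The call was lost without p974s851, p974s846, p974s850, p974s855 or p974s856 (adjusted p = 0.0682, 0.0716, 0.0788, 0.0655 and 0.0667, edgeR with Benjamini-Hochberg adjustment). With the block it passed in WT (-0.60, SE 0.10, adjusted p = 0.00647), in BMDCs labelled *Cacnb3-/-* (-0.61, SE 0.12, adjusted p = 0.00428) and over both (-0.60, SE 0.07, adjusted p = 4.95e-05, all edgeR with Benjamini-Hochberg adjustment).

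In this comparison 1 of 8 members was called in WT (1.19% of 12830 genes), 1 in BMDCs labelled *Cacnb3-/-* (0.88% of 12730 genes) and 2 over both (4.42% of 13424 genes), all lower. Of the latter only *Klf4* was also at least 2-fold lower, and 1.3% of genes passed with that minimum. With the block 5 were called in WT (11.3% of genes), 3 in BMDCs labelled *Cacnb3-/-* (28.6%) and 6 over both (25.3%), again all lower. The median log2 fold change of the members over both genotypes was -0.43, against 0.00 over all genes tested. These counts rest on the same libraries named 0p5h as the rise from ctrl, so a library of 0p5h that is high for a gene adds to both.

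*Klf2* had 24.1 to 64.2 CPM in WT at 0p5h and 14.1, 15.9, 16.1, 22.2 and 25.5 CPM at 24h, groups that overlap, and it was lower at 24h in 5 of 5 WT cultures. In cultures labelled *Cacnb3-/-* it was lower in 4 of 5, while p974s843 went from 46.5 to 62.8 CPM. With the block its log2 fold change was -0.82 in WT (SE 0.12, adjusted p = 0.00298) and -0.63 over both (SE 0.13, adjusted p = 0.00385, both edgeR with Benjamini-Hochberg adjustment). Without the block *Klf2* also passed in WT with lane as a covariate (-0.85, adjusted p = 0.0195, edgeR with Benjamini-Hochberg adjustment). Of 9 alternatives with all cultures kept, the block included, 3 called it in WT. The change in BMDCs labelled *Cacnb3-/-* did not pass (-0.44, adjusted p = 0.1, edgeR with Benjamini-Hochberg adjustment, with the block), and the genotypes were not shown to differ in it (interaction 0.37, adjusted p = 0.328, edgeR with Benjamini-Hochberg adjustment, with the block).

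*Klf7*, a relative of *Klf6* known from neurons and adipocytes, had 8.15, 8.39, 8.55, 9.31 and 10.2 CPM in WT at 0p5h and 5.23, 5.26, 6.31, 6.39 and 6.85 CPM at 24h. The WT groups do not overlap, and *Klf7* was lower at 24h in all 10 cultures. With the block it passed in WT (-0.57, SE 0.12, adjusted p = 0.0152) and over both (-0.43, SE 0.09, adjusted p = 0.0039, both edgeR with Benjamini-Hochberg adjustment). Without the block *Klf7* also passed over both with lane as a covariate (adjusted p = 0.0398, edgeR with Benjamini-Hochberg adjustment). DESeq2 without the block called it over both (adjusted p = 0.0411) and in WT (adjusted p = 0.00484, both Benjamini-Hochberg adjustment). Of 9 alternatives with all cultures kept, the block included, 5 called it over both and 4 in WT. *Klf13*, a factor that drives *Ccl5* late in T cell activation, was lower at 24h in all 10 cultures too, by 0.695-fold to 0.905-fold. *Klf13* passed with the block in WT (-0.36, adjusted p = 0.0114), in BMDCs labelled *Cacnb3-/-* (-0.32, adjusted p = 0.0212) and over both (-0.34, SE 0.05, adjusted p = 0.000501, all edgeR with Benjamini-Hochberg adjustment). With the trend of each library with the GC content of genes removed and no block, the change of *Klf13* in BMDCs labelled *Cacnb3-/-* was -0.089 (adjusted p = 0.826, edgeR with Benjamini-Hochberg adjustment), against -0.33 without that correction. *Klf10* was lower in 9 of 10 cultures and passed over both with the block (-0.41, SE 0.12, adjusted p = 0.0236, edgeR with Benjamini-Hochberg adjustment). Being lower in all 10 cultures was true of *Klf4*, *Klf7*, *Klf9* and *Klf13*, and of 5.98% of 13755 genes.

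*Klf6* and *Klf3* were not called from 0p5h to 24h in either genotype or over both, with or without the block. *Klf6* was higher at 24h than at 0p5h in 3 of 5 cultures labelled *Cacnb3-/-* and lower in 4 of 5 WT cultures, with a lowest WT value of 312 CPM in p974s856. Its interaction of genotype and change was 0.44 (SE 0.25, adjusted p = 0.68) without the block and 0.45 (SE 0.19, adjusted p = 0.148) with it, both from edgeR with Benjamini-Hochberg adjustment. *Klf3*, a CtBP-dependent repressor of blood cells and fat, was lower at 24h in 9 of 10 cultures, by a median of 0.941-fold, and moved by -0.11 over both genotypes (SE 0.16, adjusted p = 0.742, edgeR with Benjamini-Hochberg adjustment).

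**Figure D3:**
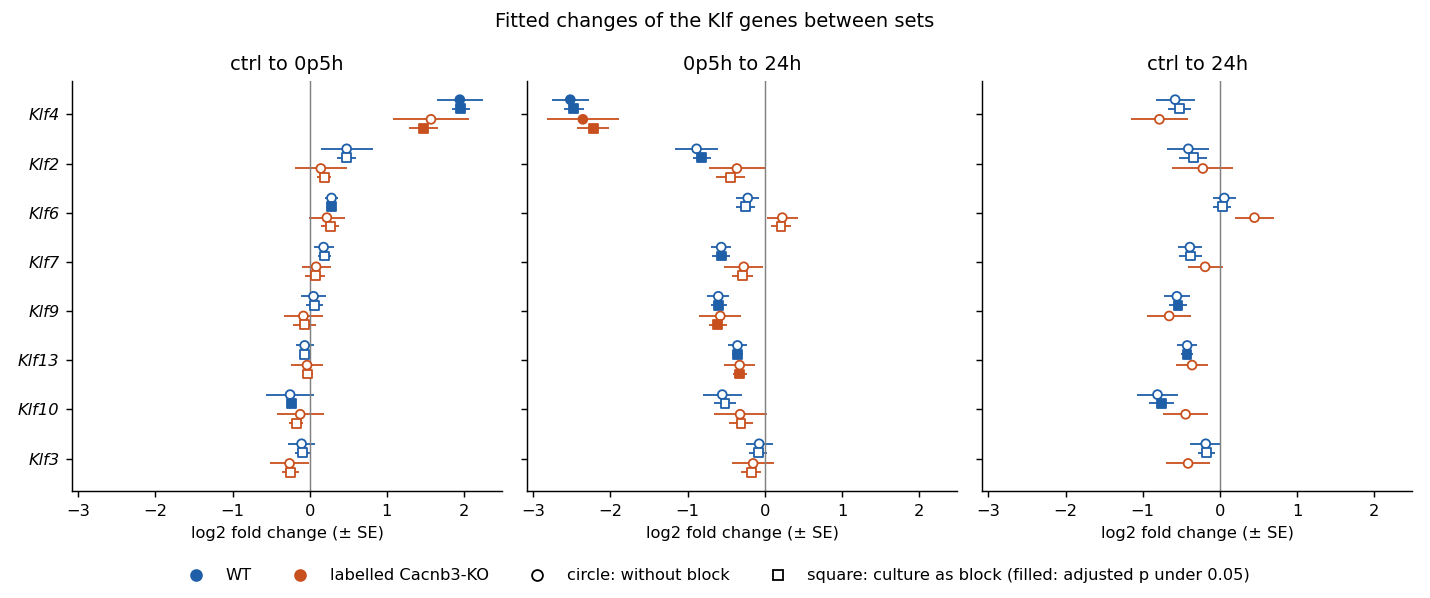
Log2 fold change (with 1 SE) of each Klf gene between sets from edgeR, in WT (blue) and BMDCs labelled Cacnb3-KO (orange). Circles are fits without pairing, squares have the culture as a replicate block (not drawn for ctrl to 24h in BMDCs labelled Cacnb3-KO, whose libraries the numbers did not pair), and filled symbols have an adjusted p under 0.05. *Klf4* at 1.95 and -2.52 in WT stands apart from the other members.

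From ctrl to 24h no member passed without the block, in WT, in BMDCs labelled *Cacnb3-/-* or over both genotypes, where 0.0152%, 0% and 0.126% of genes did. At an unadjusted p under 0.05, 5 members were lower in WT, 1 in BMDCs labelled *Cacnb3-/-* and 5 over both, and DESeq2 called 0, 0 and 1 (*Klf9*, with 1.44% of 14819 genes over both). *Klf4*, *Klf9* and *Klf13* were lower at 24h than at ctrl in all 10 cultures, as were 3.64% of 13755 genes. *Klf4* was at 0.439-fold to 0.98-fold of its ctrl level, *Klf9* at 0.34-fold to 0.899-fold and *Klf13* at 0.654-fold to 0.896-fold. The numbers did not pair the ctrl and 24h libraries of p974s843, labelled *Cacnb3-/-* (r = 0.0555, under the minimum of 0.1). These counts and ranges include that culture, which gave the 0.98-fold of *Klf4*, the 0.34-fold of *Klf9* and the 0.896-fold of *Klf13*.

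In WT, where the numbers paired the libraries, 3 members passed with the block, all lower, as did 6.05% of 13176 genes. *Klf10* went from 22.8, 26.8, 39.0, 46.1 and 61.3 CPM at ctrl to 17.5, 17.6, 20.5, 23.2 and 32.4 CPM at 24h, groups that overlap, with a ratio within cultures of 0.378-fold to 0.83-fold. Its log2 fold change with the block was -0.75 (SE 0.16, adjusted p = 0.0289, edgeR with Benjamini-Hochberg adjustment). *Klf9* gave -0.54 (SE 0.12, adjusted p = 0.0328) and *Klf13* -0.43 (SE 0.08, adjusted p = 0.0191, both edgeR with Benjamini-Hochberg adjustment and the block). *Klf4*, at -0.53 with the block, did not pass (adjusted p = 0.0676, edgeR with Benjamini-Hochberg adjustment). *Klf6* went the other way in cultures labelled *Cacnb3-/-*, where it was higher at 24h in 5 of 5, by 1.005-fold to 2.45-fold with a median of 1.33-fold (0.45, SE 0.25, adjusted p = 0.449, edgeR with Benjamini-Hochberg adjustment). The highest ratio was that of p974s843, whose libraries the numbers did not pair here. Without that culture the log2 fold change was 0.26 (adjusted p = 0.841), and removal of the GC trend gave 0.25 (adjusted p = 0.666, both edgeR with Benjamini-Hochberg adjustment).

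**Figure D4:**
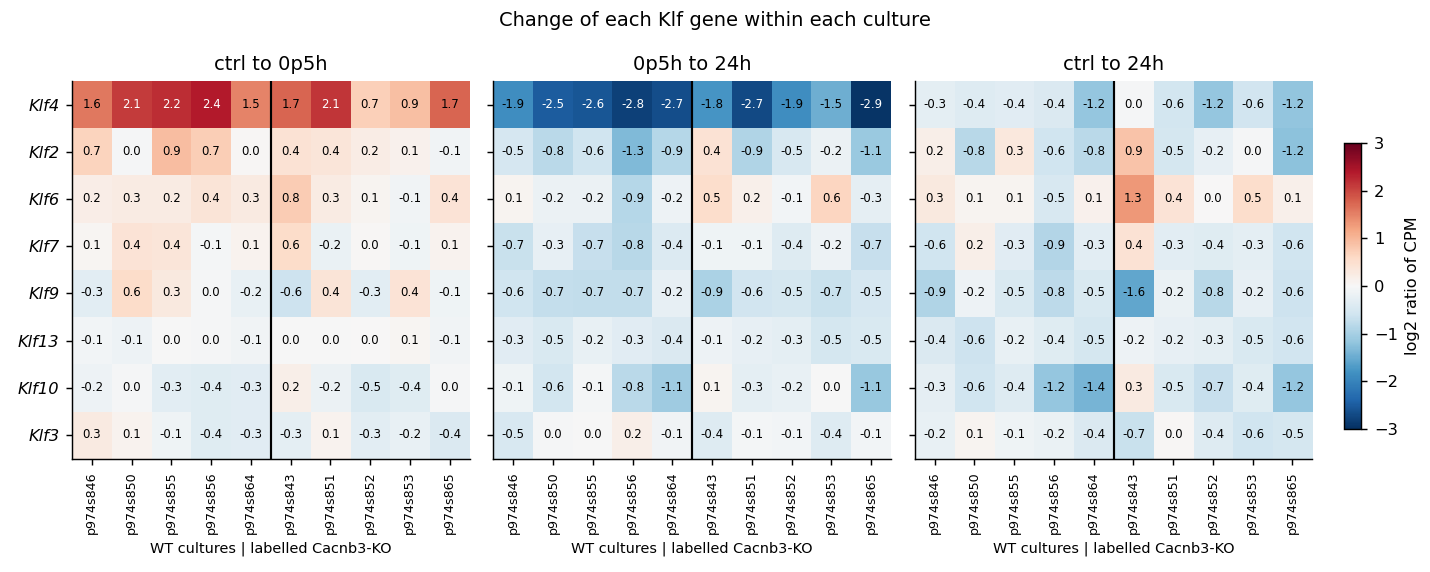
Log2 ratio of CPM between 2 sets for each Klf gene (rows) within each culture (columns, WT left of the line), red for higher and blue for lower in the later set. *Klf4* is higher from ctrl to 0p5h and lower from 0p5h to 24h in all 10 cultures. Every other member differs in sign between cultures from ctrl to 0p5h, and *Klf2*, *Klf3*, *Klf6* and *Klf10* also do from 0p5h to 24h. The numbers did not pair the ctrl and 24h libraries of p974s843.

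Other genes of the KLF pathway were followed as lists, over both genotypes. Without the block, edgeR called 1.68% of 13465 genes in either direction from ctrl to 0p5h. It called 4.42% of 13424 genes from 0p5h to 24h and 0.126% of 13536 genes from ctrl to 24h. Of 8 genes described as KLF targets, *Thbd* and *Cdkn1a* rose from ctrl to 0p5h, and *Thbd*, *Cd14*, *Smad7* and *Cdkn1a* fell to 24h. From ctrl to 24h 0 of the 8 passed. *Thbd* encodes thrombomodulin, a known target of KLF2 and KLF4 in endothelium, and *Cdkn1a* encodes the cell cycle inhibitor p21. *Thbd* changed by 2.57 on the log2 scale (SE 0.45, adjusted p = 0.0023) and then by -2.56 (SE 0.34, adjusted p = 5.2e-05, both edgeR with Benjamini-Hochberg adjustment), at 0.115 to 3.23 CPM in WT at ctrl and 2.38 to 12.8 CPM at 0p5h. With the block 6 of the 8 targets rose from ctrl to 0p5h, where 14.3% of genes were called in either direction. To 24h 5 of the 8 fell with the block, where 25.3% of genes were called. In these fits the median of the list was 0.49 and then -0.38, against 0.00 over all genes in both.

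Of 4 glucocorticoid receptor targets fixed as company for *Klf9*, *Sgk1* and *Per1* rose from ctrl to 0p5h and fell to 24h. *Sgk1*, a kinase of ion transport, changed by 0.78 (adjusted p = 0.00938) and *Per1*, a clock gene, by 0.66 (adjusted p = 0.0135, both edgeR with Benjamini-Hochberg adjustment), whereas *Klf9* changed by -0.01 there (adjusted p = 1, same test). All 4 immediate early reference genes rose from ctrl to 0p5h, with *Fosb* at 5.45, *Nr4a1* at 4.44, *Fos* at 3.05 and *Egr1* at 1.79 on the log2 scale. Of them *Fos*, *Fosb* and *Nr4a1* fell to 24h, with log2 fold changes of -3.03, -7.07 and -4.73. With the block *Egr1* fell as well (-1.84, SE 0.39, adjusted p = 0.00347, edgeR with Benjamini-Hochberg adjustment).

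Regulators of the members were followed in the same way. None of the 7 genes of the ERK5 and MEF2 pathway that drives *Klf2* and *Klf4*, the 6 of serum response factor and partners, or the 13 cofactors and ubiquitin ligases passed in any comparison of sets over both genotypes without the block. The same was true of the 9 Sp factors, of which 4 passed the filter, and for the 9 other Klf genes, of which 3 to 5 did. With the block, *Klf11*, a Sin3A-binding relative of *Klf10*, fell by 0.41 from ctrl to 0p5h (adjusted p = 0.000313) and rose by 0.31 to 24h (adjusted p = 0.00872, both edgeR with Benjamini-Hochberg adjustment). *Klf8*, of the branch of *Klf3*, rose by 0.59 from 0p5h to 24h (adjusted p = 8.14e-05, edgeR with Benjamini-Hochberg adjustment and the block). *Srf* and *Elk1* rose from ctrl to 0p5h by 0.20 and 0.24 (adjusted p = 0.00353 and 0.00396), and *Mef2d* and *Map3k3* each fell to 24h by 0.39 (adjusted p = 0.00728 and 0.0119, all edgeR with Benjamini-Hochberg adjustment and the block).

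Cell type markers were counted as well. Over both genotypes with the block, which called 25.3% of all genes in either direction, 4 of 6 DC markers fell from 0p5h to 24h, led by *Itgax* and *H2-Ab1*, while *Flt3* and *Zbtb46* rose. In the same comparison 2 of 5 mature DC markers rose (*Cd40* and *Fscn1*), 1 of 7 macrophage markers fell (*Csf1r*) and 2 of 7 granulocyte markers rose (*S100a8* and *Camp*), shares near that of all genes for the macrophage and granulocyte markers. The summed CPM of the 6 DC markers in WT was 17023 to 25286 at 0p5h and 12048 to 22065 at 24h. Their part in the fall of the members was not tested.

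Between genotypes no member passed the test in any set. In the edgeR quasi-likelihood test with Benjamini-Hochberg adjustment, 0% of genes were called at ctrl, 0p5h, 24h or with the 3 libraries of a culture summed, an alternative chosen after seeing the data. At an unadjusted p under 0.05 there were 0 members at ctrl, 0 at 0p5h and 3 at 24h. DESeq2 called 2 members at 24h, *Klf6* and *Klf10*, where it called 26.4% of 12797 genes, so that the members' share was near that of all genes, and it called 0 in the other sets. Log2 fold changes ran from -0.49 for *Klf3* to 0.91 for *Klf10*, both at 24h, and 6 of 8 members were higher in libraries labelled *Cacnb3-/-* at 0p5h and at 24h.

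*Klf10* had the smallest p of the members in each set. At 24h it had 25, 34.2, 34.6, 38.7 and 75.4 CPM in libraries labelled *Cacnb3-/-* and 17.5 to 32.4 CPM in WT, so that 4 of 5 lay above all WT libraries. The log2 fold change was 0.91 (SE 0.28, adjusted p = 0.0531, edgeR with Benjamini-Hochberg adjustment), and it passed in DESeq2 (0.90, adjusted p = 0.0172, Benjamini-Hochberg adjustment). At ctrl it was 0.55 (SE 0.28, adjusted p = 0.342), at 0p5h 0.69 (SE 0.32, adjusted p = 0.305) and over the summed libraries 0.63 (SE 0.27, adjusted p = 0.186, all edgeR with Benjamini-Hochberg adjustment). *Klf6* at 24h had 446, 626, 779, 812 and 838 CPM in libraries labelled *Cacnb3-/-* against 312 to 553 CPM in WT, with a log2 fold change of 0.57 (SE 0.21, adjusted p = 0.0721, edgeR with Benjamini-Hochberg adjustment). *Klf2* at 24h was 0.76 (SE 0.33, adjusted p = 0.112, edgeR with Benjamini-Hochberg adjustment). Single cultures moved these values. Without p974s865, where 35.3% of genes were called, *Klf10* and *Klf6* passed at 24h (adjusted p = 0.0301 and 0.0141) and so did *Klf3*, which was lower (-0.68, adjusted p = 0.0457), and without p974s843 the log2 fold change was 0.59 for *Klf10* (adjusted p = 0.117), 0.50 for *Klf6* (adjusted p = 0.15) and 0.35 for *Klf2* (adjusted p = 0.312, all edgeR with Benjamini-Hochberg adjustment). *Klf6* gave 0.34 with lane as a covariate and 0.19 after removal of the GC trend of the libraries, which moved *Klf2* the other way, to 1.33 (adjusted p = 0.126, edgeR with Benjamini-Hochberg adjustment).

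Markers of mature DCs were compared between these same libraries. At 24h the summed CPM of *Ccr7*, *Fscn1*, *Cd40*, *Cd83* and *Relb* was 5776 to 10238 in those labelled *Cacnb3-/-* and 11354 to 17037 in WT. These ranges do not overlap, but neither the share of genes separated in this way nor the values of each marker are given here. In edgeR 0 of the 5 passed the test there, as did 0% of all genes, whereas DESeq2 called 26.4% of 12797 genes in that comparison. Their part in the differences of *Klf10* and *Klf6* was not tested, and substrain and genotype cannot be told apart.

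The change between sets was not shown to depend on genotype for any member. With and without the block, 0 of 8 members passed the interaction in edgeR with Benjamini-Hochberg adjustment for any pair of sets, and DESeq2 called 0 as well. Of all genes 0% passed without the block, and 0%, 0.00745% and 0.118% with it for ctrl to 0p5h, 0p5h to 24h and ctrl to 24h. At an unadjusted p under 0.05 there was 1, *Klf6* from 0p5h to 24h with the block.

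**Figure D5:**
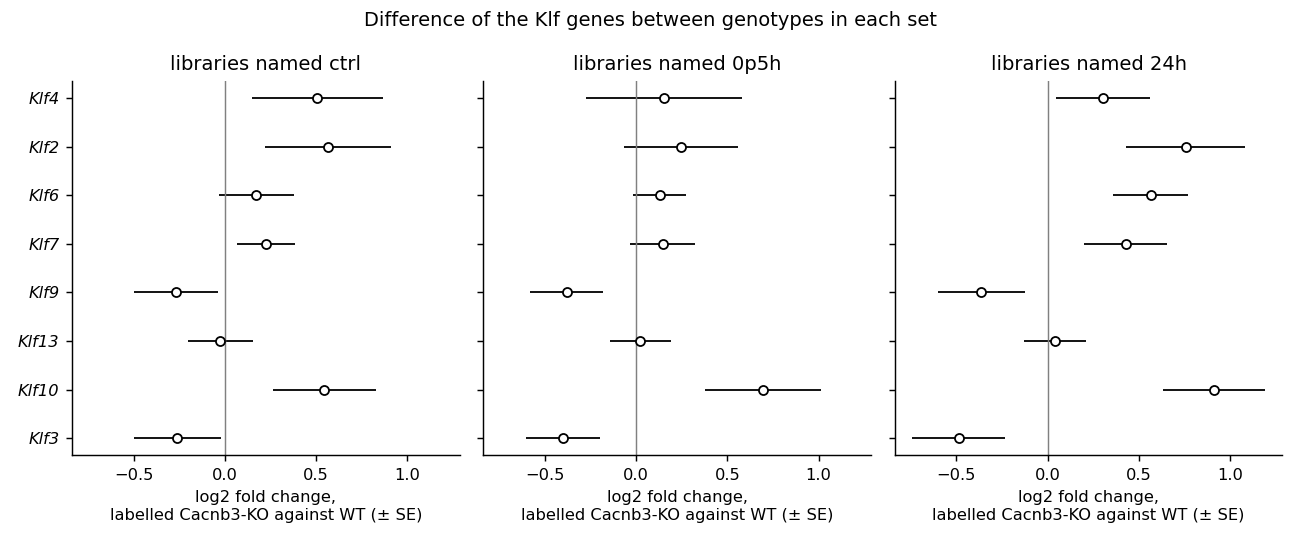
Log2 fold change (with 1 SE) of each Klf gene in libraries labelled Cacnb3-KO against WT, in each set, from edgeR with 5 cultures per genotype. No adjusted p is under 0.05, and *Klf10* at 24h is the highest at 0.91.

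Genes with the pattern most like each member were sought by Pearson correlation of log2(CPM + 1) over the 30 libraries among 13755 genes, which share cultures and sets. For *Klf4* these were *Lrrc32* (r = 0.947), *Ccno* (0.917) and *Egr2* (0.906), and for *Klf2* *Apln* (0.886), *Naaa* (0.876) and *Mcam* (0.872). For *Klf6* they were *Txnl1* (0.935), *Cwc15* (0.928) and *Eps15* (0.928), and for *Klf7* *Aph1c* (0.804), *Nemp1* (0.801) and *Cpeb3* (0.793). *Klf9* was nearest to *Skic3* (0.888), *Tnks* (0.877) and *Atp7a* (0.876), and *Klf13* to *Cds2* (0.932), *Inpp5d* (0.914) and *Alox5* (0.909). *Klf10* was nearest to *Sdad1* (0.913), *Neurl2* (0.896) and *Cd300lf* (0.89), and *Klf3* to *Il6ra* (0.927), *Mocs1* (0.923) and *Ptpn1* (0.921). Among the members themselves the highest correlation was between *Klf2* and *Klf10* (r = 0.743), and *Klf6* had no partner above 0.179. With the mean of each culture removed, the partner of *Klf2* became *Klf4* (r = 0.758) and that of *Klf10* became *Klf13* (r = 0.803).

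Cultures kept their own levels of several members across sets. Culture p974s865 had the highest *Klf2*, *Klf4*, *Klf10* and *Klf13* of its genotype at both ctrl and 0p5h, and the highest *Klf3* and *Klf9* in all 3 sets. Culture p974s843 stood apart at 24h, where it had the highest *Klf2* (62.8 CPM), *Klf7* (12.5 CPM) and *Klf10* (75.4 CPM) of all libraries of 24h, the lowest *Klf9* (4.39 CPM) and the fewest reads. Counting without strand could add reads of genes on the other strand, but the annotated genes overlapping *Klf3*, *Klf7* and *Klf13* held at most 13, 1 and 5 reads in any library, and that within *Klf9* held 0.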

How the data were processed

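RNA-seq was done on 30 libraries of BMDCs, 3 from each of 10 cultures. The authors deposited 1 table of raw read counts per gene, unnormalized, and its header gives featureCounts 1.5.1 with Ensembl release 79 gene models of GRCm38 and no strand option. The labels give STAR 2.4 and a stranded kit, whereas the methods name GRCm39. Gene symbols came from GENCODE M39 by Ensembl identifier. No column was left out. Groups came from the library names, since the treatment field disagrees with them for the ctrl and 0p5h sets.

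Counts were tested with edgeR 4.0.16 (R 4.3.3; filterByExpr, TMM, quasi-likelihood F test) between sets, between genotypes and for their interaction, with Benjamini-Hochberg adjustment over all genes tested and a threshold of 0.05. CPM used TMM-scaled library sizes, and log2(CPM + 1) served for lanes and correlations. Fold changes between sets of the same cultures share libraries. Depth was 8237393 to 32164225 reads per library. The statistics were tested on simulated data with known changes.

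The members and lists were chosen with earlier results of these data known. All 8 members and *Cacnb3* were named whatever their values. Between genotypes a member was named at an unadjusted p under 0.05 or as the smallest p, at most 4 genes a list were named by smallest adjusted p, and 3 genes per member by correlation.

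The culture number was also fitted as a replicate block. Deviations from group means were correlated between libraries of the same culture. The lowest r over the 5 cultures of WT was 0.695 (ctrl and 0p5h), 0.455 (ctrl and 24h) and 0.453 (0p5h and 24h), and over those labelled *Cacnb3-/-* it was 0.301 (ctrl and 0p5h) and 0.487 (0p5h and 24h), against a minimum of 0.1 for pairing. From ctrl to 24h in BMDCs labelled *Cacnb3-/-* 1 of 5 cultures fell short (r = 0.0555), so the block is given for that comparison with the alternatives alone. Other alternatives were DESeq2 1.42.0, limma-voom (limma 3.58.1), DESeq2 size factors, no filter, all 30 libraries in 1 fit, a GC correction, lane as a covariate, a 2-fold minimum and each culture left out. DESeq2 with the block and summed libraries were chosen after seeing the data. Promoter windows came from RefSeq (GRCm38.p6). The result of 1 gene of the lists is not reported here.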

Additional observations from a re-analysis of the deposited data

Results flagged for a closer look

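In 8 of 48 groups of 5 libraries, 1 library lay far from the other 4 in the level of a member, and chance flags about 1 in 20 groups. The groups of different members share libraries, so the flags are not independent, and whether they exceed chance was not tested. In WT at 0p5h, culture p974s856 was high for *Klf2* (64.2 CPM) and *Klf13* (96.8 CPM), and p974s855 was high for *Klf9* (19.9 CPM). In WT at 24h, p974s856 was low for *Klf6* (312 CPM). In libraries labelled *Cacnb3-/-*, p974s865 was high at ctrl for *Klf4* (26.2 CPM) and *Klf3* (13 CPM), p974s852 was high at 0p5h for *Klf6* (822 CPM), and p974s843 was high at 24h for *Klf10* (75.4 CPM).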

How the results depend on the processing

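Counts of members past the test depended on the pairing most. With the culture as a replicate block, the count of 8 members rose in WT from 1 to 3 (ctrl to 0p5h), from 1 to 5 (0p5h to 24h) and from 0 to 3 (ctrl to 24h). In BMDCs labelled *Cacnb3-/-* it rose from 0 to 1, from 1 to 3 and from 0 to 1 (8.54% of genes), and over both genotypes from 1 to 4, from 2 to 6 and from 0 to 4 (14.1% of genes). For ctrl to 24h the member called with the replicate block in BMDCs labelled *Cacnb3-/-* was *Klf4* (-0.72, adjusted p = 0.0416, edgeR with Benjamini-Hochberg adjustment). Over both genotypes it was *Klf4*, *Klf9*, *Klf10* and *Klf13* (adjusted p = 0.00517, 0.00454, 0.00853 and 0.00163, edgeR with Benjamini-Hochberg adjustment). DESeq2 with the replicate block gave 2, 6 and 4 in WT, 1, 3 and 4 in BMDCs labelled *Cacnb3-/-* and 4, 6 and 5 over both. No interaction passed with the block.

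DESeq2 alone gave 2 (WT, ctrl to 0p5h), 3 (WT, 0p5h to 24h), 3 (both, 0p5h to 24h), 1 (both, ctrl to 24h) and 2 (genotypes at 24h). Lane as a covariate gave 4 in WT, 0 in BMDCs labelled *Cacnb3-/-* and 3 over both from 0p5h to 24h, where limma-voom gave 0 in BMDCs labelled *Cacnb3-/-* and removal of the GC trend gave 3 over both. A 2-fold minimum left 1 over both from 0p5h to 24h. Between genotypes at 24h, all 30 libraries in 1 fit gave 2 and no filter gave 1. Leaving out a culture gave 0 to 1 in WT for ctrl to 0p5h, 0 to 1 in BMDCs labelled *Cacnb3-/-* and 1 to 4 over both for 0p5h to 24h, and 0 to 3 between genotypes at 24h. *Klf2* in BMDCs labelled *Cacnb3-/-* changed sign from 0p5h to 24h with the GC trend removed (0.072 against -0.36). The cause was not tested. Of the 3 genes most like each member, 1 (for *Klf4*) or 0 were kept after the culture means were removed. With the GC trend removed *Klf2* over both genotypes from 0p5h to 24h gave -0.40 against -0.62. The fewest reads behind a member's value were 33, and 5 libraries a group limit the precision.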
